A study of Mus musculus with 4 samples.

Results

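The 10 surface marker genes that have been used to define regulatory B cells were followed in single cells: Havcr1 (TIM-1), Cd9, Cd5, Cd1d1, Cd24a, Cr2 (CD21), Nt5e (CD73), Entpd1 (CD39), Lag3 and Cd38. They were chosen by name, as 10 of the 31053 genes in the feature table, and all 10 were found there. In the GENCODE vM21 annotation of GRCm38, Havcr1 lies at chr11:46735080-46779578, Cd9 at chr6:125460266-125494791, Cd24a at chr10:43578284-43584265, Cd1d1 at chr3:86995834-86999441 and Cd38 at chr5:43868553-43912375. The study set B cells cultured with CpG against the same culture with further stimuli. The labels give 4 samples of wild-type mouse spleen B cells: Bregs-CpG, 2 samples activated for 3 days with the CpG oligonucleotide ODN 1668, a ligand of TLR9, and Bregs-TLR, 2 samples that also received LPS, a ligand of TLR4, with PMA and ionomycin over the last 5 hours. All 4 therefore share the CpG culture, and no uncultured B cells were analysed here. The mice were C57BL/6 and the B cells were isolated by negative selection with beads.

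The deposited matrix pools the libraries, and each barcode ends in a library number from 5 to 8. No label ties these numbers to a sample, so libraries 5, 6, 7 and 8 are described by number, none is given a treatment, and no test between treatments was made. There were 35989 matrix columns but only 19920 listed barcodes. The barcodes were taken as the last 19920 columns in order, an inferred placement on which every value per library rests. Of these cells, 18534 had at least 1000 genes and under 10% mitochondrial unique molecular identifiers (UMIs): 4196, 4714, 5621 and 4003 in libraries 5 to 8. Median depth was 8752 and 8785 UMIs a cell in libraries 5 and 6 and 10355 and 10077 in libraries 7 and 8, and 29 barcodes occurred in more than 1 library. The 8 B cell markers summed to 15274 and 15805 counts per 1000000 UMIs (CPM) in libraries 5 and 6. In libraries 7 and 8 they summed to 8083 and 8054 CPM. The plasma cell list summed to 1626, 1793, 391 and 341 CPM in libraries 5 to 8. The T cell, NK cell, erythroid and platelet lists each summed to under 1 CPM. Myeloid markers summed to at most 3.09 CPM and dendritic cell markers to at most 5.52 CPM. Intervals given below are exact and cover counting error only. They treat UMIs as independent, so they are too narrow where the UMIs of a gene gather in few cells.

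Regulatory B cells are B cells that restrain immune responses, in large part through the cytokine IL-10, and no single surface protein or transcription factor is known to define them. Different laboratories have therefore sorted them by different markers: CD1d with CD5 for the B10 subset of spleen, TIM-1 for cells rich in IL-10, CD24, CD21 and CD38 for transitional and marginal zone populations, CD9 as a tetraspanin found on B10 cells, LAG-3 on plasma cells that make IL-10, and the ectoenzymes CD39 and CD73, which turn extracellular ATP into adenosine. Il10 itself stood at 13.7 and 11.1 CPM in libraries 5 and 6 and at 255 and 253 CPM in libraries 7 and 8. The marker genes were therefore read against a sparse Il10 signal in the first pair and an abundant one in the second.

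Havcr1, which encodes a phosphatidylserine receptor, was read at 6.31 CPM in library 5, 5.64 in library 6, 47.2 in library 7 and 40.5 in library 8. The pairs did not overlap, and the lowest value of libraries 7 and 8 was 6.41 times the highest of libraries 5 and 6. At a depth of 5000 UMIs, to which each cell was thinned at random so that detection could be compared, 2.75% and 2.22% of cells in libraries 5 and 6 held a Havcr1 UMI, and 17.7% and 15.3% in libraries 7 and 8.

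Lag3, an inhibitory receptor that binds MHC class II, had 0.736 and 0.678 CPM in libraries 5 and 6 and 6.96 and 7.16 CPM in libraries 7 and 8, a gap of 9.46-fold between the nearest libraries. Cd9, a tetraspanin, had 2.81, 3.29, 8.25 and 7.16 CPM in libraries 5 to 8, with a gap of 2.17-fold. Cd24a, which encodes a small GPI-anchored glycoprotein, had 517, 521, 1083 and 1069 CPM, and its gap was 2.05-fold. These 4 genes were each lower in libraries 5 and 6 than in 7 and 8.

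A set of 3 genes had the opposite order. Cd1d1, which presents lipid antigens to NKT cells, had 5.26 and 6.197 CPM in libraries 5 and 6 but 0.204 and 0.263 CPM in libraries 7 and 8, a 20.03-fold gap. Only 13 and 12 Cd1d1 UMIs were counted in the latter 2 libraries. Cd38, which encodes an enzyme that consumes NAD, had 296, 307, 137 and 124 CPM, a gap of 2.17-fold, and was seen in 74.9% and 76.1% of thinned cells of libraries 5 and 6 against 42.7% and 40.6% of those of 7 and 8. Entpd1, the ectoenzyme that hydrolyses ATP and ADP, was scarce throughout, at 1.05, 0.988, 0.377 and 0.372 CPM from 47, 51, 24 and 17 UMIs. Its gap was 2.62-fold.

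Cr2, a receptor for fragments of complement C3, had 10.1, 10.5, 12.6 and 11.5 CPM, and libraries 5 to 8 differed by less than the limit set for a call, given below. Cd5, a brake on B cell receptor signalling and the marker paired with CD1d in B10 cells, was almost absent: 5 UMIs in library 5, 1 in library 6, and 0 in libraries 7 and 8, where the count of 0, taken as under 3 counts, allows up to 0.0557% and 0.0780% of thinned cells with a UMI (Clopper-Pearson upper limits 0.0684% and 0.0959%). Nt5e, which converts AMP to adenosine, had 3, 3, 19 and 17 UMIs. Both fell short of the 50 UMIs in all required for a comparison of levels. No cell at 5000 UMIs held both Cd5 and Cd1d1, but only 0.0570 and 0.0317 such cells were expected in libraries 5 and 6 from the 3 cells with Cd5, so the depth says nothing of cells with both.

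A gene was called where every library of one pair was at least 0.32 higher on the log2 scale than every library of the other. By that rule, 3 of the 8 members with 50 UMIs were higher in libraries 5 and 6 (Cd1d1, Entpd1 and Cd38), where 28.7% of all genes tested were, and 4 were lower (Havcr1, Cd9, Cd24a and Lag3), where 33.6% of all genes were. With so large a share of all genes called, these counts do not set the markers apart from other genes. The libraries within a pair differed by at most 1.29-fold for those 8 members.

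**Figure D1:**
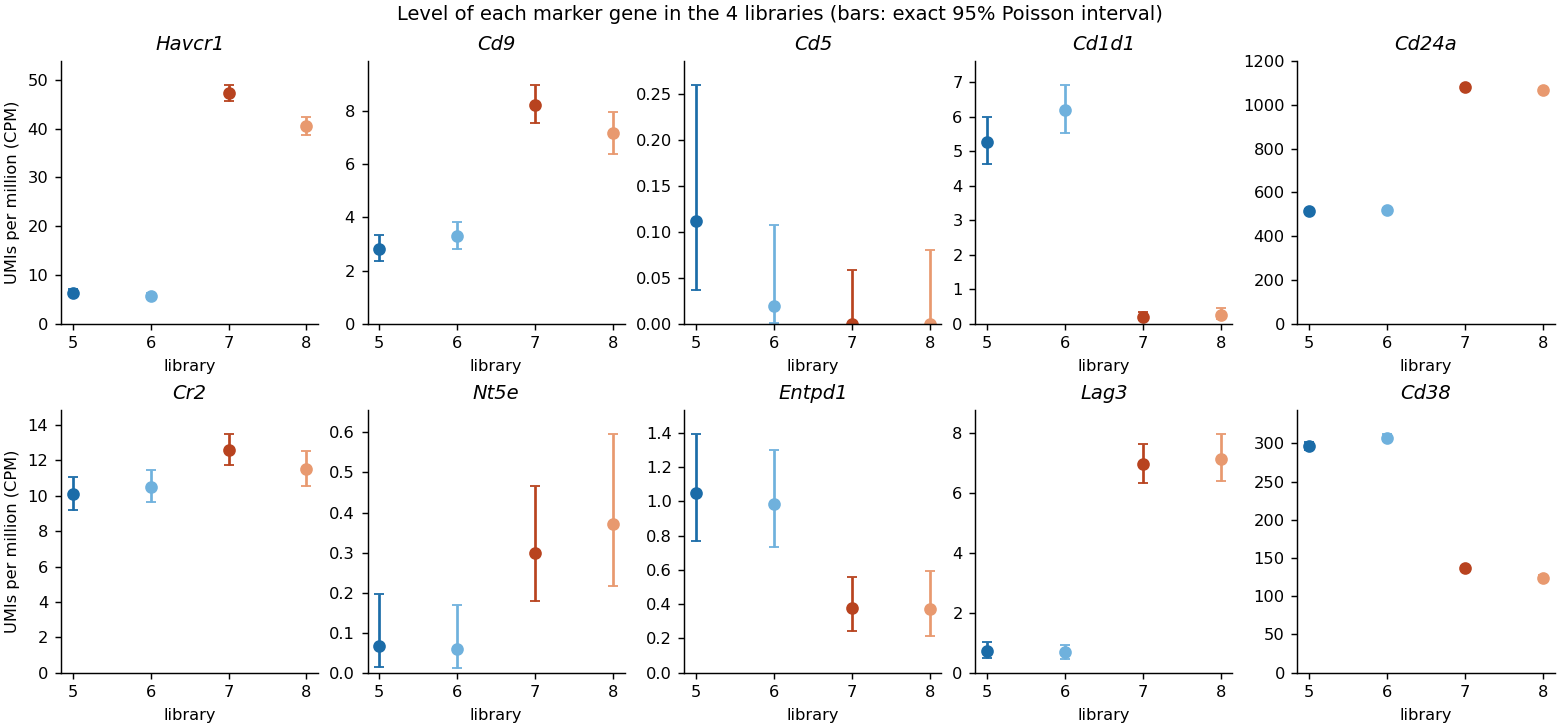
Level of each of the 10 marker genes, as CPM (vertical axes, each from 0), in libraries 5 to 8 (horizontal axes), with exact 95% Poisson intervals that cover counting error only. Havcr1, Cd9, Cd24a and Lag3 lie lower in libraries 5 and 6, Cd1d1, Entpd1 and Cd38 lie lower in libraries 7 and 8, Cr2 is nearly level, and Cd5 has 0 UMIs in libraries 7 and 8.

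The question these markers are used to answer is whether a cell that carries one makes more IL-10. Here both marker and Il10 were read as RNA, so the ratios concern transcripts and not surface protein or secreted IL-10. Within each library, the mean Il10 UMIs of cells with at least 1 UMI of the marker was divided by the mean of cells with none, all at 5000 UMIs a cell. A total of 662 shallower cells were left out, leaving 4038, 4600, 5388 and 3846. A marker was called where the log2 ratio was at least 0.32 in size and of the same sign in both libraries of a pair, with at least 20 positive and 20 negative cells in each. Cells of a library are not replicates, so no p-value is given. A cell counted as negative may still hold the transcript. Havcr1 was seen in 2.75% of thinned cells of library 5 but in 5.79% of its cells before thinning. In library 7 these shares were 17.7% and 29.8%.

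Havcr1-positive cells had more Il10 in all 4 libraries. In library 5 the 111 positive cells held 162 Il10 UMIs per 1000 cells against 52.2 in negative cells, and in library 6 the 102 positive cells held 88.2 against 46.5. In library 7 the values were 1464 against 1265, and in library 8 1620 against 1245. The log2 ratios were 1.64, 0.93, 0.21 and 0.38 for libraries 5 to 8, and the interval of library 6, -0.22 to 1.88, included 0. The share of cells with an Il10 UMI had the same order, 8.11% against 3.97%, 5.88% against 3.65%, 63.3% against 55.5% and 67.8% against 57.2%. In library 5, 1 cell with 2 Havcr1 UMIs held 6 of the 18 Il10 UMIs of the positive cells. The 108 cells with 1 Havcr1 UMI held 111 Il10 UMIs per 1000 cells there. Before thinning the positive cells were deeper, with medians of 10022 against 8863 UMIs in library 5 and 9428 against 8858.5 in library 6. In libraries 7 and 8 the medians were 10632 against 10492.5 and 10438 against 10162.

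Cd24a was so widely detected that its level says more than its presence. Cells with no Cd24a UMI held 25.5 and 34.7 Il10 UMIs per 1000 cells in libraries 5 and 6, and cells with 10 or more held 259 and 237. In those top cells, 54 and 59 in number, 20.4% and 13.6% had an Il10 UMI, against 2.12% and 2.00% of the cells without Cd24a. The median depth before thinning was 8489 and 8341 UMIs in the top cells and 8795 and 8635 in the cells without Cd24a. In libraries 7 and 8 Il10 went from 1059 and 1206 per 1000 cells without Cd24a to 1433 and 1504 with 10 or more. The bins of 1 to 2, 3 to 5 and 6 to 9 UMIs were nearly level there. They held 1296, 1285 and 1305 in library 7 and 1275, 1249 and 1289 in library 8. The same bins held 47.2, 56.2 and 110 in library 5 and 33.3, 55.4 and 75.6 in library 6. A second random draw gave the same order of the end bins, 24.3 and 217 in library 5, 35.3 and 241 in library 6, 1205 and 1428 in library 7, and 1269 and 1485 in library 8. Both draws came from the same cells, so the second shows the spread of the thinning only. The bins were chosen after the levels had been seen.

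Scored as present or absent, Cd24a had log2 ratios of 1.27 and 0.52 in libraries 5 and 6 and 0.32 and 0.12 in libraries 7 and 8. The intervals of library 6, -0.07 to 1.17, and library 8, -0.04 to 0.29, included 0. Cd38 lay on the other side of 0 in each library, at -0.65, -0.24, -0.24 and -0.14, and did not meet the rule in either pair. In library 7 Il10 went from 1393 per 1000 cells without Cd38 to 711 in the 38 cells with 5 or more Cd38 UMIs. In library 5 it went from 75.9 to 7.30, the latter from 1 Il10 UMI. Library 6 had no such order, with 53.7 and 51.9 at the ends, and library 8 had 1353 and 1188, the latter from 16 cells. In a second draw the end bins were 87.0 and 38.2 in library 5 and 1386 and 1068 in library 7, a smaller fall in both. Those of library 6 were then 45.9 and 89.2, and those of library 8 were 1362 and 1480. In the main draw, median depth before thinning fell between the Cd38 end bins from 9397.5 to 7984 UMIs in library 5. It fell from 9174.5 to 8294.5 in library 6 and from 10690.5 to 9537.5 in library 7, and rose from 10330 to 10700.5 in library 8.

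**Figure D2:**
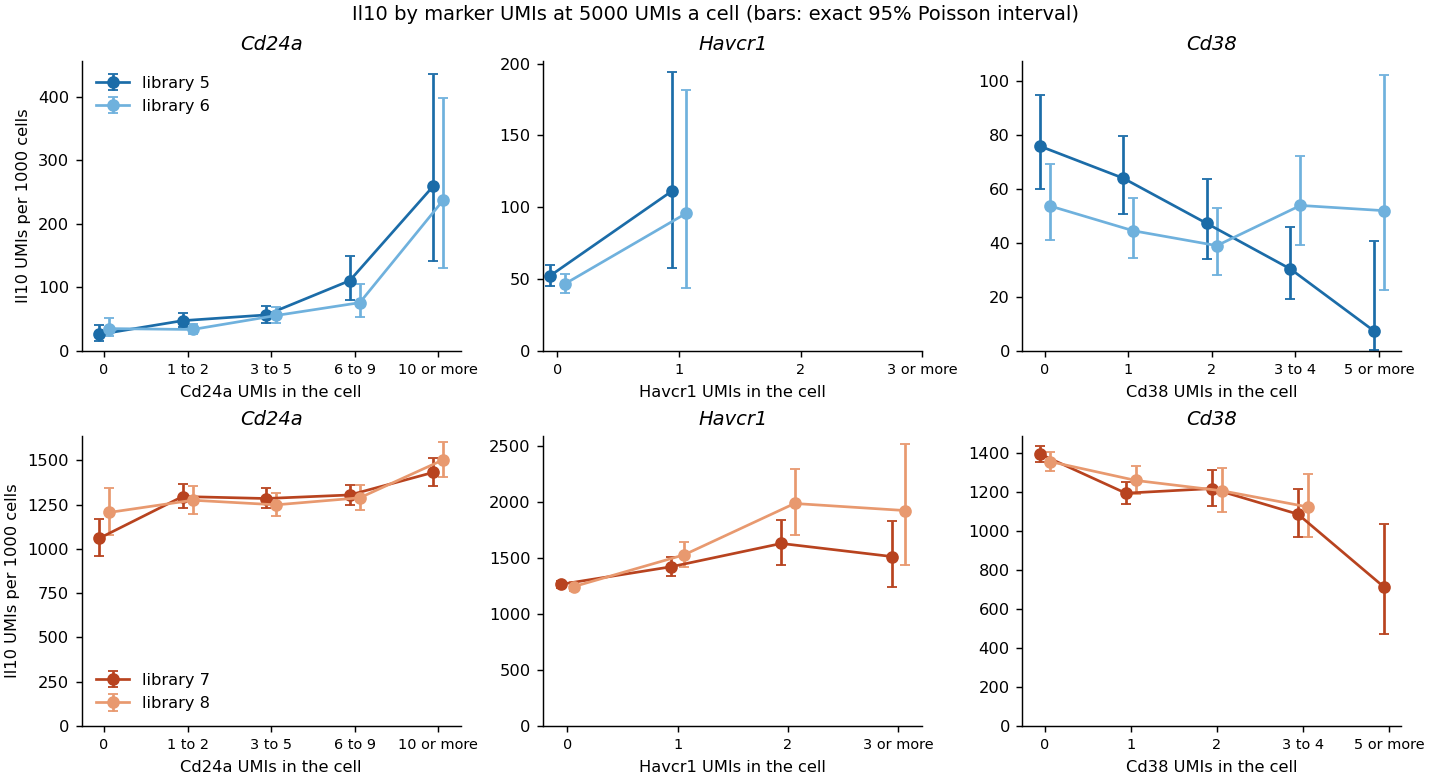
Il10 UMIs per 1000 cells (vertical axes, from 0 and of different range in each panel) by the number of Cd24a, Havcr1 or Cd38 UMIs in the cell (horizontal axes), at 5000 UMIs a cell, with exact 95% Poisson intervals. Upper panels show libraries 5 and 6, lower panels libraries 7 and 8, and bins under 20 cells are left out. Among the Cd24a bins, Il10 is highest in the cells with 10 or more UMIs in all 4 libraries, reaching 259 and 237 in libraries 5 and 6.

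Cd9-positive cells were few, 42, 72, 154 and 98 in libraries 5 to 8, and their log2 ratios were 1.62, 1.74, 0.22 and 0.41. In library 5 the value rested on 1 cell: of the 7 Il10 UMIs in the positive cells, 6 lay in it, and without it the log2 ratio was -1.15. No cell of that library held more Il10, but a Havcr1-positive cell held 6 as well. Where the richest cell of each library was left out, the Havcr1-positive cell was kept. The share of cells with an Il10 UMI in that library was 4.76% in 2 positive cells against 4.08% in negative cells. Without the richest cell of each library the Cd9 ratios of libraries 6, 7 and 8 were 1.80, 0.23 and 0.31. The Cd9-positive cell left out of library 5 also held UMIs of Cd24a and Lag3.

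Cd1d1-positive cells held 26.1 and 20.5 Il10 UMIs per 1000 cells in libraries 5 and 6 against 56.1 and 48.3 in negative cells, from 3 Il10 UMIs in each library. The log2 ratios, -1.10 and -1.23, met the rule for a lower call, yet both intervals, -3.39 to 0.46 and -3.52 to 0.33, included 0. The call also depended on the random draw: over 20 further draws it was made in 2, the opposite call was made in 1, and the median log2 ratio of the pair was -0.01. No direction is therefore given for Cd1d1. Libraries 7 and 8 had 4 and 6 positive cells, too few to compare.

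Cr2-positive cells had log2 ratios of -0.57, 0.58, 0.06 and -0.15, which differed in sign within each pair. In library 6 the sign rested on 1 cell, the richest in Il10, which held 8 of the 16 Il10 UMIs of the positive cells. Without the richest cell of each library the ratios were -0.53, -0.42, 0.07 and -0.15, and Cr2 met the rule for a lower call in libraries 5 and 6. Lag3 could be compared in libraries 7 and 8, where 175 and 135 positive cells had log2 ratios of 0.20 and 0.18, under the limit for a call. The cell richest in Il10 in each of these libraries held Lag3, and without it the ratios were 0.04 and 0.09. The share of cells with an Il10 UMI was 56.6% in positive against 56.9% in negative cells of library 7. In library 8 it was 57.0% against 58.9%. Positive cells of Entpd1 numbered 19, 23, 10 and 6, those of Nt5e at most 7, and those of Cd5 at most 2, and none of these genes was compared in a pair.

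In libraries 5 and 6, 3 of the 6 markers compared were thus called higher, Havcr1, Cd9 and Cd24a, where 12.6% of all 10134 genes compared were, and 1 was called lower, Cd1d1, where 14.1% of genes were. As given above, the Cd9 call rested on 1 cell in library 5 and the Cd1d1 call on the random draw. In libraries 7 and 8, 0 of 6 were called higher, where 0.415% of 9887 genes were, and 0 were called lower, where 0.556% were. So few genes reached the limit there that 0 of 6 says little by itself. Over libraries 7 and 8 together, the log2 ratios were 0.28 for Havcr1, 0.30 for Cd9, 0.23 for Cd24a and 0.19 for Lag3. Those of Cr2 and Cd38 were -0.02 and -0.20. The 5th and 95th percentiles over all genes compared there were -0.19 and 0.18. The sets of 6 were not the same: Cd1d1 was compared only in libraries 5 and 6 and Lag3 only in libraries 7 and 8. The median log2 ratio of the 6 markers compared was 0.50 in libraries 5 and 6, beside 0.03 over all genes. It was 0.21 in libraries 7 and 8, beside 0.01 over all genes. In the 20 further draws, chosen after seeing the data, Havcr1 was called higher in libraries 5 and 6 in 20, Cd9 in 19 and Cd24a in 19. All draws come from the same cells, so they show the spread of the thinning and not that between samples. The 1 cell on which Cd9 rested in library 5 was in every draw. Havcr1 was called higher in libraries 7 and 8 in 1 of the draws. With at least 100 positive and 100 negative cells asked for, a limit also chosen after seeing the data, 5 markers were compared in each pair. In libraries 5 and 6, 2 were then higher, where 13% of genes were, and 1 lower, where 11.3% were, and in libraries 7 and 8 0 were higher, where 0.105% were, and 0 lower, where 0.0655% were. The median log2 ratio of the 5 markers was then 0.12 in libraries 5 and 6, beside 0.05 over all genes. It was 0.19 in libraries 7 and 8, beside 0.01. These sets of 5 also differed by Cd1d1 and Lag3. The 0.12 was the ratio of Cr2 itself and the 0.19 that of Lag3.

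**Figure D3:**
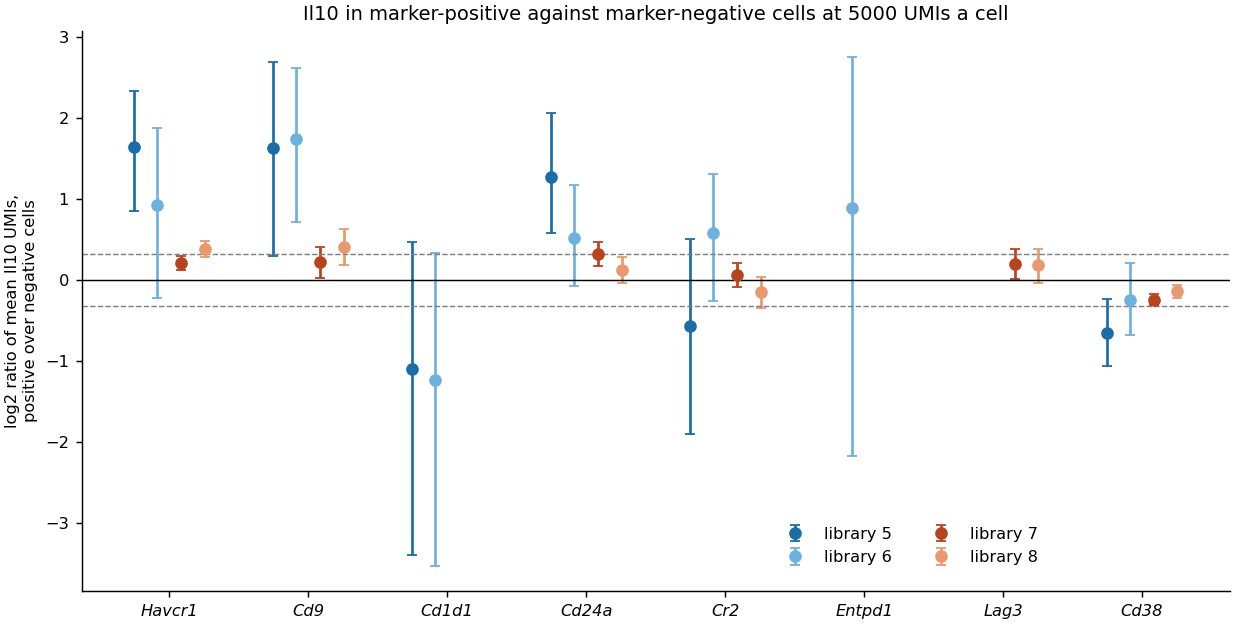
Log2 ratio of mean Il10 UMIs in marker-positive over marker-negative cells (vertical axis) for each marker with at least 20 positive cells in that library (horizontal axis), at 5000 UMIs a cell, with exact conditional 95% intervals. The solid line is 0 and the dashed lines mark the limit for a call, 0.32 up and down. Havcr1, Cd9 and Cd24a lie above 0 in all 4 libraries and Cd38 lies below 0, with wide intervals in libraries 5 and 6.

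**Figure D4:**
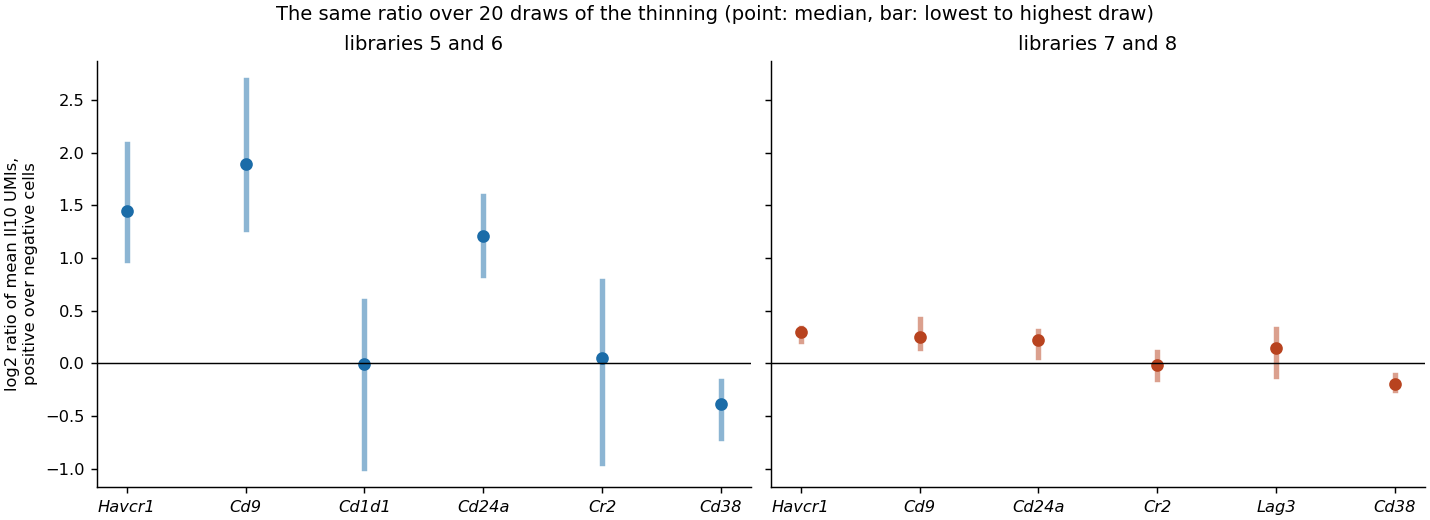
The same log2 ratio for a pair of libraries (vertical axis) over 20 draws of the thinning, for the markers that could be compared in every draw (horizontal axes), with libraries 5 and 6 on the left and 7 and 8 on the right. Points are medians and bars run from the lowest to the highest draw. In libraries 5 and 6 the bars of Havcr1, Cd9 and Cd24a stay above 0 and those of Cd1d1 and Cr2 lie on both sides of it.

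Cells rich in Jchain, which encodes the joining chain of secreted IgM and IgA and is typical of plasma cells, held several of the markers at a higher level. There were 21, 37, 52 and 25 cells with at least 10 Jchain UMIs in libraries 5 to 8. Cd9 stood at 67.5, 45.0, 122 and 66.4 CPM in them, against 2.46, 2.28, 6.55 and 5.66 CPM in the cells that were neither Jchain-high nor positive for the proliferation gene Mki67. Entpd1 stood at 24.9, 32.9, 8.05 and 14.2 CPM against 0.863, 0.600, 0.286 and 0.276. In every library the intervals of these 2 genes in the 2 classes did not overlap.

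Lag3 stood at 39.1, 13.8, 28.2 and 11.9 CPM in the Jchain-high cells against 0.432, 0.384, 6.85 and 7.19 CPM in the others, and in library 8 its interval, 3.85 to 27.7, included the value of the other cells. Cd24a differed in direction between the pairs: 664 and 720 CPM in Jchain-high cells against 528 and 529 in the others in libraries 5 and 6, and 361 and 524 against 1133 and 1122 in libraries 7 and 8. Cd38 stood at 192, 194, 102 and 97.3 CPM in Jchain-high cells against 306, 321, 141 and 129, and the intervals overlapped in library 8 alone. Among cells that were not Jchain-high, at most 0.506% held a Jchain UMI at the thinned depth. Il10 stood at 10.7, 13.8, 244 and 183 CPM in Jchain-high cells against 13.6, 10.9, 261 and 258 in the others, and only in library 8 did the intervals not overlap. The Mki67-positive cells had less Cd24a than the other cells in all 4 libraries, at 458, 472, 754 and 719 CPM against 528, 529, 1133 and 1122, and these intervals did not overlap. Il10 in the Mki67-positive cells stood at 14.1, 11.9, 209 and 220 CPM against 13.6, 10.9, 261 and 258. For Il10 the intervals were apart in libraries 7 and 8 and overlapped in libraries 5 and 6. The 3 classes were set after the levels had been seen.

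**Figure D5:**
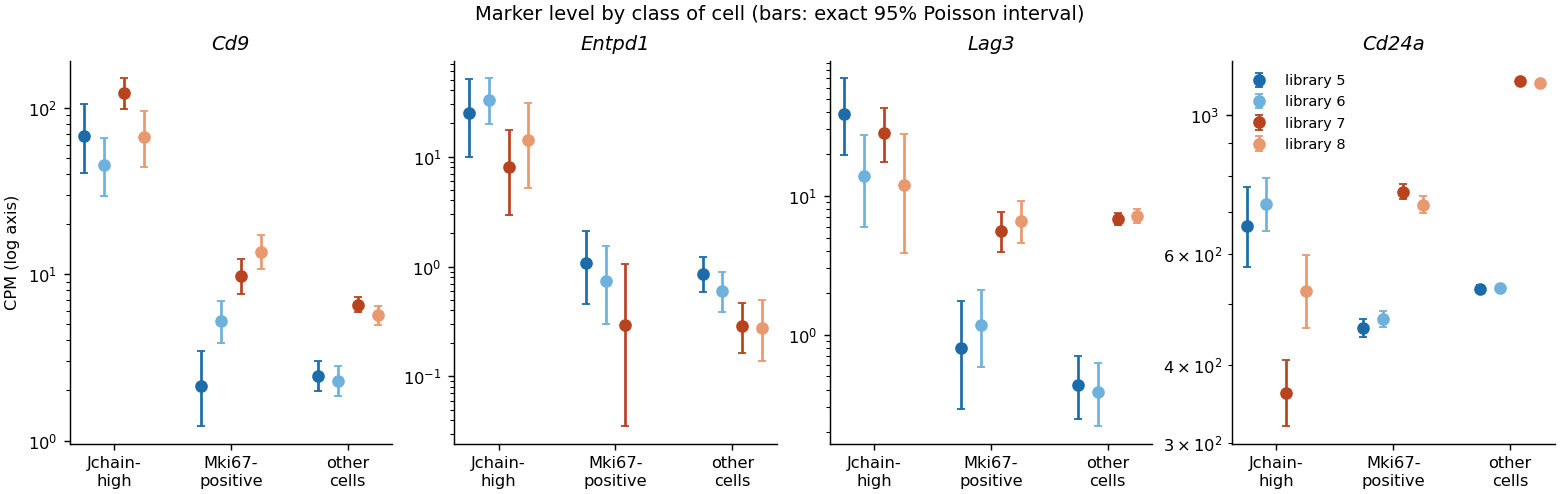
Level of Cd9, Entpd1, Lag3 and Cd24a in CPM (log axes) in Jchain-high cells, Mki67-positive cells and the other cells of each library, with exact 95% Poisson intervals. A class with 0 UMIs, Entpd1 in the Mki67-positive cells of library 8, is not drawn. Cd9 and Entpd1 are highest in the Jchain-high cells of every library.

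Joint detection of the markers in 1 cell was set against the number of cells expected if each were detected independently. Of the 45 pairs of members, 11 had at least 5 expected joint cells in every library. For 1 of them, Cd24a with Cd38, the observed cells exceeded the expected in all 4 libraries, by a ratio of 1.00 to 1.01. Cd24a was so widely detected that this ratio could not rise far above 1. The limit of 5 expected cells left out Havcr1 with Cd9, which had 48 and 22 cells in libraries 7 and 8 against 27.2 and 15.0 expected. In libraries 5 and 6 that pair had 1 and 3 cells against 1.15 and 1.60. Pairs left out also went both ways, as Entpd1 with Cd38, at 16 and 14 cells in libraries 5 and 6 against 14.2 and 17.5. Lag3 with Cd38 was seen together less often than expected in all 4, with ratios of 0.583 to 0.890, and Havcr1 with Cd38 had ratios of 0.905 to 0.998. In libraries 5 and 6 the observed and expected cells were nearly equal. Lag3 with Cd38 had 8 and 6 cells there against 8.99 and 6.85 expected. Havcr1 with Cd38 had 83 and 77 against 83.1 and 77.7. These are descriptions, since the points share library and depth. By the ratio of observed to expected joint cells, lowest of the 4 libraries, the genes nearest to Cd9 were Ncstn, at 1.62, and Fam46c, at 1.62, and those nearest to Cr2 were Rreb1, at 1.31, and Tbc1d5, at 1.27. Of these genes, a second draw kept only Fam46c, at 1.86 to 3.84, and put Ncstn at 0.683, Rreb1 at 0.883 and Tbc1d5 at 0.961. Slamf7, at 1.61 to 2.81, ranked next for Cd9 in that draw, and no gene reached the limit for a call for Cr2. Havcr1 and Cd38 had no gene that reached the limit of 0.32 on the log2 scale in the first draw. In the second draw Rgs2, at 1.30, and Pld3, at 1.29, reached it for Havcr1, and none did for Cd38. For Cd24a no gene could reach it, since 93.1% and 92.9% of thinned cells of libraries 7 and 8 held Cd24a. Cd38, in 74.9% and 76.1% of thinned cells of libraries 5 and 6, also left a gene little room to do so.

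The partner genes of these markers were counted in the same way, beside the 28.7% of all genes tested that were higher in libraries 5 and 6 and the 33.6% that were lower. Of the TIM family, Timd2 had 4.14 CPM in libraries 5 and 6 together and 36.2 in libraries 7 and 8, an order like that of Havcr1, and Timd4 and Havcr2 fell short of 50 UMIs. Of 13 purine and NAD genes tested, 5 were higher and 5 lower in libraries 5 and 6, near the shares over all genes. Adk, which phosphorylates adenosine, went from 20.3 to 55.8 CPM, Slc29a1, an equilibrative nucleoside transporter, from 9.59 to 30.9, and P2rx4, an ATP-gated channel, from 15.0 to 32.8. P2ry10 went from 24.8 to 7.45 CPM and Slc28a2, a concentrative nucleoside transporter, from 21.3 to 6.26.

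Of 14 tetraspanins tested, 5 were higher and 5 lower in libraries 5 and 6, also near those shares, with Cd37 going from 584 to 149 CPM, Cd81 from 121 to 197 and Cd63 from 0.912 to 39.5. In the CD1d pathway, 5 of 8 genes tested were higher in libraries 5 and 6, where 28.7% of all genes were, B2m, the light chain of CD1d, among them at 604 against 279 CPM. The other 2 called, Gla and Mttp, were lower, at 2.99 against 11.9 CPM and 4.001 against 8.86 CPM. Cd1d2 was not analysed here.

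Among the partners of CD5, CD24, CD38 and LAG-3, 5 of 6 tested were higher in libraries 5 and 6, where 28.7% of all genes were, including Siglecg, an inhibitory receptor for CD24, at 200 against 39.2 CPM, and Cd72 at 174 against 24.8. Lgals3, which encodes galectin-3, was lower at 3.62 against 10.2 CPM. Of 17 B cell subset genes tested, 15 were higher in libraries 5 and 6 and 2 lower, where 28.7% and 33.6% of all genes were, with a median log2 level of -2.02 in libraries 7 and 8 over 5 and 6, beside 0.09 over all genes. Klf2, a factor of resting follicular B cells, stood at 452 against 7.51 CPM. The B-1 genes differed in direction. Zbtb32 was lower in libraries 5 and 6, at 8.26 against 63.1, as was Ctla4, at 3.89 against 19.7. Spn was higher, at 11.5 against 5.64, as was Bhlhe41, at 13.9 against 5.66.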

How the data were processed

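Droplet single-cell libraries (10x Genomics, 3' chemistry) were read as UMI counts per gene and barcode. The authors made the deposited counts with Cell Ranger 3.1.0 on mm10 and pooled the libraries with its aggr step, which by the study's methods also normalized between them, by evening out sequencing depth before counting. The values are whole UMI counts with no scaling per cell, and the imputation used later in the study is not in them. Library depths may therefore be closer here than as sequenced. The 16069 matrix columns without a barcode were not used. Cells with at least 1000 genes and under 10% mitochondrial UMIs were kept. No doublet caller was run; leaving out the 5% of cells with the most UMIs, or cells with a marker of another cell type, kept every count of called members within 1.5 times. CPM was a gene's summed UMIs scaled to 1000000 for the library. For Il10 each cell was thinned without replacement to 5000 UMIs (seed 1), each cell from its own random stream. Intervals were Poisson, Clopper-Pearson and conditional binomial, all exact, at 95%. The statistics were tested on simulated data, but the settings and result of that test are not given here. No conclusion is drawn from it about the calls, least of all where Il10 was sparse. Reads were not split by overlapping genes: Cd38, Cd9 and Entpd1 overlap other annotated genes.

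The members and lists were chosen with earlier results of these data known. The result of 1 list of partner genes is not reported here. All 10 members were named; list genes were named as examples among those above 5 CPM in a library that passed a call; nearest genes were the 2 with the highest ratio of joint detection, named where that ratio reached the limit for a call, a log2 of 0.32. Median depth was 9599 UMIs a cell. No differential test such as a count model was run, because no label maps a library to a sample. Alternatives were other depths and draws, other cell filters, other measures of Il10, other denominators and leaving out each library. Python 3 with numpy and SciPy was used.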

Additional observations from a re-analysis of the deposited data

How the results depend on the processing

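The level counts, 3 members higher and 4 lower in libraries 5 and 6, stayed within 1.5 times under every alternative run. The Il10 counts did not. Drawing all cells from a single random stream, the draw made first, gave 5 members higher and 0 lower of 7 compared in libraries 5 and 6, in place of 3 and 1 of 6; the streams were then made per cell so that each cell is drawn alike in every setting. Over 20 further draws the counts ran from 2 to 4 higher and 0 to 2 lower. Without thinning, and without thinning within 10 strata of depth, they were 5 higher and 0 lower of 8. At 3000 UMIs 0 were lower. At 8000 UMIs 1 member was higher in libraries 7 and 8. With 2 UMIs as the limit for a positive cell, 1 was higher and 0 lower in libraries 5 and 6, and 1 higher in libraries 7 and 8. Without the cell richest in Il10 in each library, 2 were lower in libraries 5 and 6. Cd9 was then no longer called higher there, with log2 ratios of -1.15 and 1.80. Leaving out each library in turn gave 3 to 5 higher and 1 to 3 lower in libraries 5 and 6. In libraries 7 and 8 it gave 0 to 2 higher. Without library 5 it was 5 higher, without library 6 it was 3 lower, and without library 7 it was 2 higher. With a library left out, its pair was judged on 1 library alone, so a call no longer needed both libraries to agree. Except for the 100-cell limit, no share over all genes was computed under these alternatives. The log2 ratio of Cd1d1 in libraries 5 and 6 turned positive at 3000 UMIs (0.31), at 8000 UMIs (0.014), with a single stream (0.75), without thinning (0.15) and within strata of depth (0.0042). Apart from the looser rule where a library was left out, the cause of these changes was not tested. With 223 and 218 Il10 UMIs in the thinned cells of libraries 5 and 6, counting error limits every ratio there. The single stream, the repeated draws, the 100-cell limit and leaving out shared barcodes or the richest cell were chosen after seeing the data. No paired analysis was possible because the library numbers carry no sample or replicate label.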
